A study of Mus musculus with 26 samples.

Results

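The Bcl2 family decides whether mitochondria release the proteins that start programmed cell death. Its guardians are Mcl1, Bcl2, Bcl2l1 (Bcl-xL) and Bcl2l2 (Bcl-w), which hold the pore-forming effectors Bax, Bak1 and Bok in check. The BH3-only proteins Bcl2l11 (Bim), Bbc3 (Puma) and Bid carry death signals to both, and many newly formed oligodendrocytes are known to die unless survival factors reach them. These 10 genes, 4 guardians, 3 BH3-only genes and 3 effectors, were taken from the deposited tables by symbol, as a named list. All 10 were found among the 10104 transcripts listed, and all 10 had a level in both cell types and a half-life in every replicate.

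Labelled RNA was followed in oligodendrocyte progenitor cells (OPCs) of mouse strain 129S/SvEv that had been made from epiblast stem cells and were kept in bFGF and PDGFA. Oligodendrocytes (OLs) were made from such OPCs in noggin, IGF-1, cyclic AMP, NT3 and T3, the thyroid hormone, for 40 h before labelling. Every chase culture then received 5-ethynyluridine (5-EU), a uridine analogue that allows labelled RNA to be captured, for 24 h, and the label was replaced by uridine for 0, 1, 2, 4 or 6 h. There were 3 OPC replicates and 2 OL replicates, 25 libraries in all, and a control without biotin was not analysed here. With so short a time in differentiation medium, the OLs are a culture model of recently formed oligodendrocytes. In the OL libraries 8 of 8 oligodendrocyte markers were listed, against 2 of 8 in the OPC libraries, with a summed 0 h level of 2833 to 6181 FPKM against 37.6 to 55.1 FPKM. The 4 progenitor markers were listed in both, at 220 to 223 FPKM in OLs and 224 to 344 FPKM in OPCs, so the OL cultures still held progenitor RNA. The 3 proliferation markers summed to 24.2 to 53.1 FPKM in OLs and 82.5 to 218 FPKM in OPCs. The astrocyte markers summed to 104 to 165 FPKM in OLs (3 of 4 listed) and 179 to 224 FPKM in OPCs (1 of 4, Slc1a3). Slc1a3 also made up most of the OL sum, at 95.5 and 155 FPKM in OL replicates 1 and 2. Gfap (6.86 and 8.12 FPKM) and Aldh1l1 (1.72 and 2.44 FPKM) were listed in OLs only. The only neuron marker listed, Tubb3, had 24.5 to 24.6 FPKM in OLs and 13.2 to 17.4 FPKM in OPCs. No pluripotent cell or microglia marker was listed, and the part of these markers in the results below was not tested. In bulk libraries, fewer cells of a type and less RNA per cell cannot be told apart.

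AU-rich elements, of which UAUUUAU is a core, are sequences of 3′ untranslated regions (UTRs) at which proteins that shorten or lengthen an mRNA's life are known to bind. Because the family ranges from some of the shortest-lived mRNAs to some of the longest, the occurrences of this 7-letter core (TATTTAT in the DNA letters below, in capitals) are shown for the genes that hold it, each with 11 bases on either side, as read 5′ to 3′ along the mRNA from the GENCODE M21 transcripts on GRCm38.
Mcl1, chr3:95660882-95660910, plus strand: gaaaacatgtgTATTTATgaaggtggact
Mcl1, chr3:95662578-95662606, plus strand: ttgtacctgtgTATTTATccttgatcata
Mcl1, chr3:95662603-95662631, plus strand: catagtttgctTATTTATgtttaactctt
Bcl2, chr1:106542995-106543023, minus strand: aaaaaaagattTATTTATttaagacagtt
Bcl2, chr1:106539916-106539944, minus strand: aggcatattctTATTTATtacatctaaga
Bcl2l1, chr2:152780892-152780920, minus strand: aagcgtgtctgTATTTATgtgtgaggagc
Bcl2l11, chr2:128161109-128161137, plus strand: tatattttgacTATTTATtagattagaaa
Bcl2l11, chr2:128161343-128161371, plus strand: gagatgttgtaTATTTATtttccgcttat

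All 8 occurrences lay in the 3′ UTR within an exon. The core was present in 3 of 4 guardians and in 1 of 3 BH3-only genes, and in none of the 3 effectors. Of all 10104 transcripts, 29.7% held it. The 5-letter core ATTTA, which overlaps every TATTTAT, occurred 15 times in Bcl2, 8 times in Mcl1, 6 times in Bcl2l11, 4 times in Bcl2l2 and 1 time each in Bcl2l1 and Bok. It was not found in the 3′ UTRs of Bbc3, Bid, Bax or Bak1, against 69.1% of all transcripts that held it at least 1 time. The search was made on the strand of the mRNA, and the counts move with length. The 3′ UTR was 165 nt in Bax, 602 nt in Bok, 971 nt in Bbc3, 1121 nt in Bak1, 1427 nt in Bid, 1477 nt in Bcl2l1, 2353 nt in Mcl1, 2701 nt in Bcl2l2, 4218 nt in Bcl2l11 and 5086 nt in Bcl2. TATTTAT was present in 33.6% of transcripts with a 3′ UTR of 1000 to 2000 nt, 44.7% of those of 2000 to 3000 nt and 63.1% of those over 3000 nt.

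The first question was how long each mRNA lasted in OPCs. The half-lives were those the authors fitted to each replicate, with a ceiling of 6 h, and they are given as values, with no test between genes. Bax and Bak1 were at or near the 6 h ceiling in every replicate, and most guardians and BH3-only genes lay below the median in OPCs, except Bcl2l2, which stood around it (percentiles 23.8, 49.6 and 53.9 in OPC replicates 1, 2 and 3). In 4 of 5 replicates all 3 effectors had a longer half-life than all 7 other members, the exception being OL replicate 2, where Bok (2.92 h) lay below Mcl1 (5.28 h).

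Mcl1, the guardian with the highest level, had a half-life of 1.32, 1.08 and 1.68 h in OPC replicates 1, 2 and 3, or 1.36 ± 0.301 h (SD, n = 3). The median over all transcripts was 2.33, 2.05 and 2.79 h in the same replicates, so Mcl1 lay below it in 3 of 3. It ranked at percentile 21.0, 7.37 and 21.6 of the half-lives. Its labelled mRNA fell to 32.0%, 27.8% and 43.8% of the 0 h level by 2 h and to 9.03%, 7.27% and 9.38% by 6 h, when the median transcript kept 14.4%, 11.0% and 17.7%. The 3 OPC cultures thus ended within a narrow range, but at 4 h they stood at 13.4%, 3.03% and 10.1%.

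The other guardians had longer mean half-lives in OPCs than Mcl1, but Bcl2l1 did not keep more of its mRNA at 6 h. The half-life of Bcl2 was 2.07, 1.96 and 1.96 h, and that of Bcl2l1 was 1.96, 1.96 and 1.89 h, in OPC replicates 1, 2 and 3. The recurring 1.96 h is a value the fit itself returns for any transcript whose levels lie above the fitted curve at 1 and 2 h and below it at 4 and 6 h, whatever their size, and 7 of the members' 50 half-lives had it. Ties of this kind make the spread of Bcl2 (SD 0.0679 h) and Bcl2l1 (SD 0.0414 h) smaller than that of their levels, as at 4 h, when Bcl2l1 was at 21.0%, 3.31% and 8.05% of 0 h. By 6 h Bcl2l1 had 5.72%, listed 0 and 6.96% left, less than Mcl1 in each OPC replicate, and Bcl2 had 13.5%, 3.93% and 4.06%. Bcl2l2 spread the most among the guardians, with half-lives of 1.40, 2.03 and 3.14 h and 15.5%, 18.2% and 26.6% left at 6 h, above the median transcript in every OPC replicate.

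Bcl2l11, whose product Bim binds all the guardians, had the shortest mean half-life in both cell types. In OPCs its mean of 1.03 h was close to that of Bbc3, 1.06 h, and their ranges overlapped. Bcl2l11 had half-lives of 1.05, 1.11 and 0.919 h in OPC replicates 1, 2 and 3 and 1.02 and 1.85 h in OL replicates 1 and 2. These stood at percentiles 11.9, 7.90 and 4.34 in OPCs and 6.23 and 10.7 in OLs, the lowest mean percentile in OLs of the 10 members. By 1 h it was already at 51.6% and 47.8% of 0 h in OPC replicates 1 and 3 and at 46.6% and 68.7% in OLs, while OPC replicate 2 still had 100.8%. At 6 h Bcl2l11 was at 19.7%, 13.1% and listed 0 in OPC replicates 1, 2 and 3, and at 11.4% and 8.17% in OLs. It thus lay above the median transcript at 6 h in OPC replicates 1 and 2 (14.4% and 11.0%), and below it in the others.

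Bbc3, whose product Puma is best known as a target of p53, had half-lives of 0.556, 1.52 and 1.09 h in OPCs. Its level fell to 8.79%, 8.40% and 34.4% of 0 h by 2 h. Bbc3 holds neither ATTTA nor TATTTAT in its 3′ UTR, and the same was true of Bid, at 1.37, 1.96 and 1.96 h. Bid links death receptors to the mitochondria and was the least abundant member, at 3.17, 2.08 and 1.52 FPKM in OPCs. It stood at 36.4% to 75.9% of 0 h at 2 h and was listed at 0 at 4 and 6 h in all 3 OPC replicates and in OL replicate 1, while OL replicate 2 had 33.1% and 32.2% left. In the OPC libraries 2.23% to 14.8% of all transcripts were listed at 0 at 4 h and 15.7% to 21.6% at 6 h.

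Bax and Bak1 stood at the other end. Bax was at the 6 h ceiling in all 5 replicates, and its labelled mRNA at 6 h was 60.0%, 130% and 94.8% of 0 h in OPCs and 99.8% and 82.7% in OLs. Bak1 was at the ceiling in all replicates except OPC replicate 3 (5.44 h), with 50.5%, 32.3% and 46.5% left at 6 h in OPCs and 53.8% and 55.5% in OLs. From 24.3% to 31.1% of transcripts in OPCs and from 36.1% to 39.7% in OLs were at the ceiling. Bok, which forms pores without being held by most guardians, had 3.14, 5.77 and 3.70 h in OPCs and 6 and 2.92 h in OLs. The 2 OL replicates of Bok lay on either side of all OPC values.

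**Figure D1:**
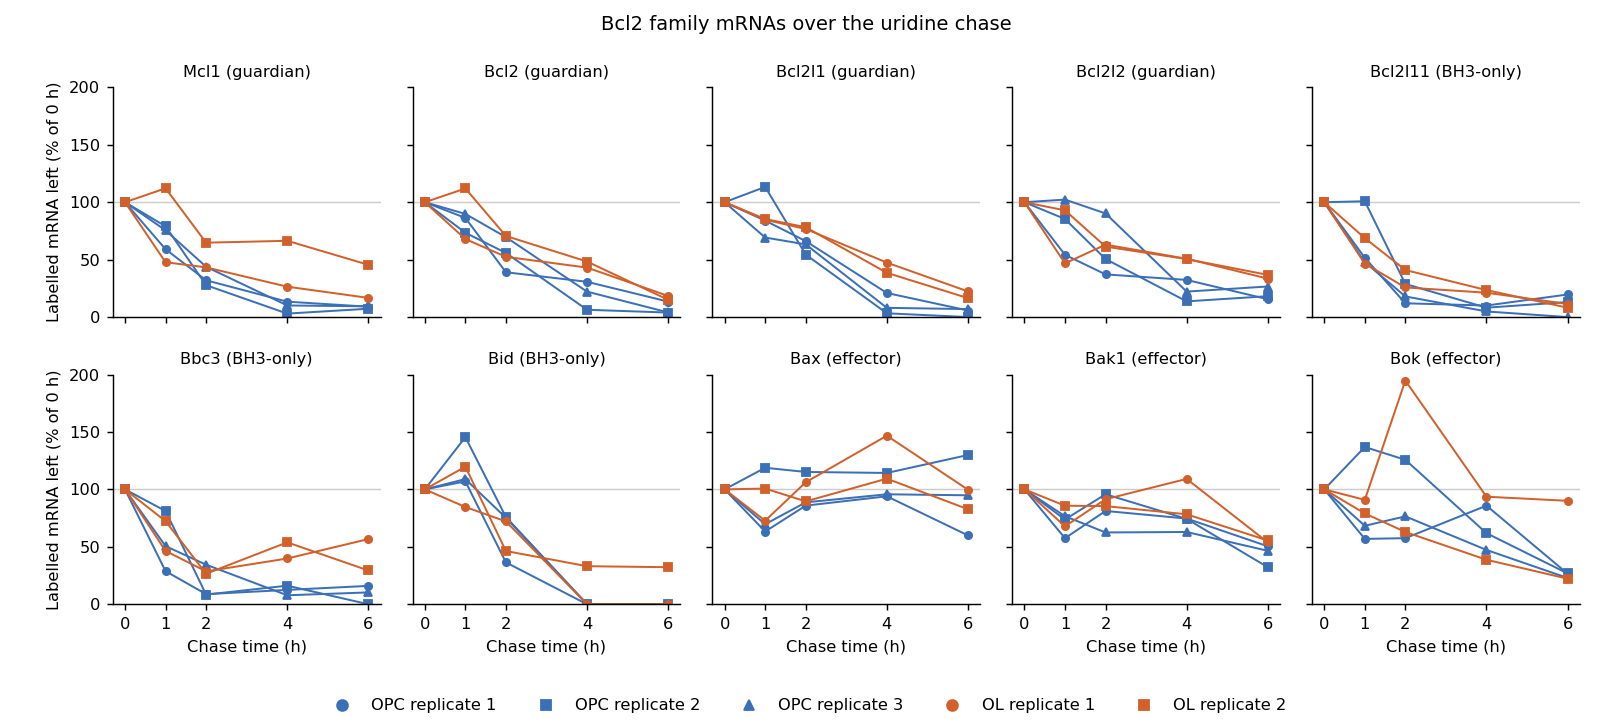
Labelled mRNA of each gene as a percentage of its replicate's 0 h level (vertical axis) against chase time in h (horizontal axis), with 1 line per replicate, OPC in blue and OL in orange. Bax lies between 60.0% and 147% of its 0 h level after labelling ends, Mcl1 in OPCs ends between 7.27% and 9.38%, and Bbc3 in OLs turns up again after 2 h.

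The fitted slopes of log2(FPKM + 1) on chase time gave a test against no change, with Bax and Bak1 again the most stable and with another order among the rest. In OPCs 9 of 10 members fell (limma, Benjamini-Hochberg adjusted p under 0.05 over 8530 transcripts). Of all transcripts 81.7% fell and 4.31% rose, so a fall is what most transcripts did. With the pseudocount of 1 FPKM the steepest were Bcl2l1 at -0.65 ± 0.06 (SE) and Mcl1 at -0.64 ± 0.07 log2 units per h, against a median of -0.38 over all transcripts. Bax alone did not pass, at 0.00 ± 0.04 (adjusted p = 0.953), and Bak1 was the shallowest of those that did, at -0.16 ± 0.04 (adjusted p = 0.00225). In OLs 7 of 10 members fell, beside 68.4% of all 9751 transcripts. On the same scale the steepest were Bcl2l11 at -0.37 ± 0.05 and Bcl2l1 at -0.36 ± 0.04, against a median of -0.20. Bax (0.02 ± 0.05, adjusted p = 0.766), Bak1 (-0.10 ± 0.05, adjusted p = 0.0710) and Bbc3 (-0.14 ± 0.07, adjusted p = 0.0956) did not pass. Bok passed in OLs at -0.16 ± 0.06 (adjusted p = 0.0225), but it had -0.28 without OL replicate 1 and -0.04 without OL replicate 2 (adjusted p = 0.713). Without OL replicate 2 Bcl2l2 did not pass either (adjusted p = 0.0603). Without the 6 h libraries 7 members fell in OPCs, with Bak1 (adjusted p = 0.208) and Bok (adjusted p = 0.0948) lost, and 6 in OLs, with Bok lost (adjusted p = 0.239). Of all transcripts, 5897 of 8530 in OPCs and 4606 of 9751 in OLs passed without them, in either direction. The pseudocount of 1 FPKM flattens the slope of a rare mRNA such as Bid (-0.35 ± 0.05 in OPCs and -0.19 ± 0.04 in OLs), so the order of the slopes rests on it. With 0.1 FPKM the steepest in OPCs were Bid (-0.93) and Bcl2l1 (-0.91), before Mcl1 (-0.67), and in OLs Bcl2l11 (-0.50) and Bid (-0.50), before Bcl2 (-0.40) and Bcl2l1 (-0.39). Rescaling each library to its own median moved every slope up by 0.44 in OPCs and 0.23 in OLs. This was more than the median slopes of -0.38 and -0.20 would need to reach 0. It left 5 members past the threshold in OPCs and 4 in OLs, beside 4578 of 8530 and 4391 of 9751 transcripts in either direction. On this rescaled scale, Mcl1 (-0.20, adjusted p = 0.0139) and Bcl2l1 (-0.21, adjusted p = 0.00113) fell in OPCs and all 3 effectors rose, Bax by 0.44 (adjusted p = 1.39e-07), Bak1 by 0.28 (adjusted p = 7.42e-05) and Bok by 0.15 (adjusted p = 0.01002). In OLs Bcl2l1 (-0.12, adjusted p = 0.0357) and Bcl2l11 (-0.13, adjusted p = 0.0210) fell on it, and Bax (0.25, adjusted p = 0.000205) and Bak1 (0.14, adjusted p = 0.0138) rose.

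**Figure D2:**
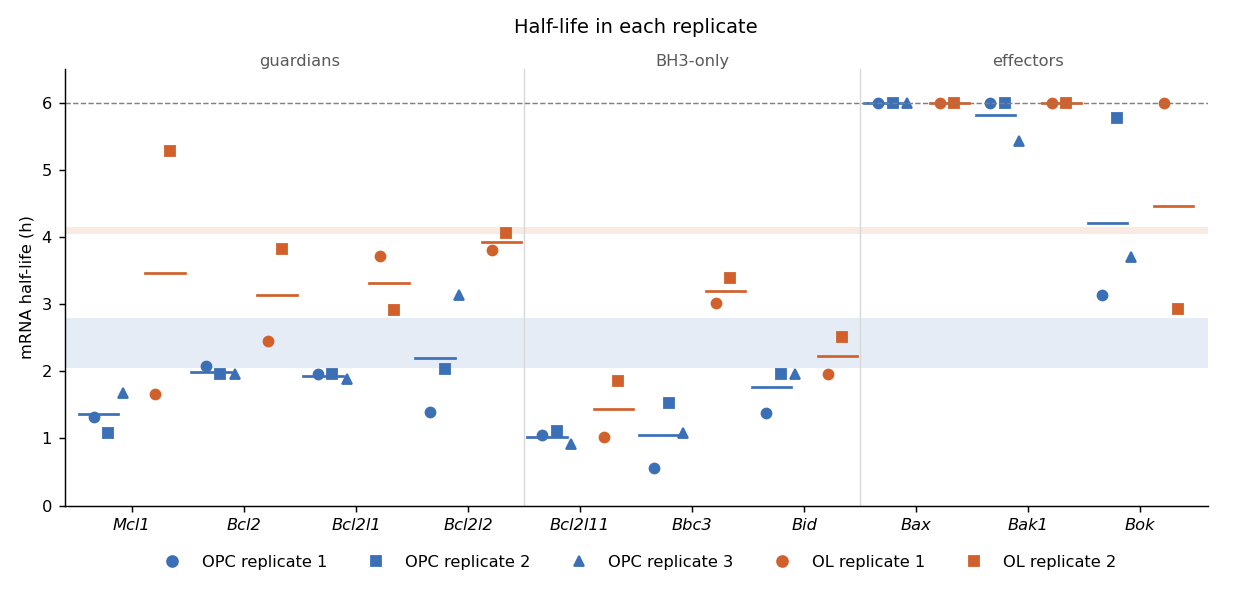
Half-life in h (vertical axis) of each gene in OPC (blue) and OL (orange), with 1 point per replicate, a bar at each mean, a dashed line at the 6 h ceiling and shaded bands over the range of the all-transcript medians of the replicates. Bax and Bak1 sit at or near the ceiling in all replicates and the 7 guardians and BH3-only genes lie below 3.2 h in every OPC replicate.

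The next question was whether the half-lives differed between OPCs and OLs. All-transcript medians were longer in OLs, at 4.15 and 4.05 h. Mcl1 had 1.66 h in OL replicate 1 and 5.28 h in OL replicate 2, so that replicate 1 lay inside the OPC range and replicate 2 far above it. Bcl2 had 2.46 and 3.82 h, Bcl2l1 3.72 and 2.91 h and Bcl2l2 3.80 and 4.05 h, and for each of these 3 guardians both OL replicates lay above all 3 OPC replicates. Bbc3 had 3.01 and 3.40 h, 3.04 times its OPC mean, and did not overlap either. Bid, at 1.96 and 2.51 h, met the OPC range. In all, 4 of 10 members had no overlap with OLs above, beside 35.9% of all transcripts, and none had OLs below.

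By limma no member passed an adjusted p of 0.05 in half-life, and 2 of 10, Bcl2l1 and Bbc3, had an unadjusted p under 0.05, beside 23.0% of all 8112 transcripts. Of these 3.39% passed with a longer and 0.148% with a shorter half-life in OLs. Bcl2l1 came nearest, with a log2 difference of 0.77 ± 0.13 (SE) and an adjusted p of 0.0779, an error that rests on the tied OPC values above. Without OL replicate 2 it passed, at 0.94 (adjusted p = 0.0292), but with 1 OL value left the spread in that fit came from the OPC values alone. With half-lives refitted without the 6 h library the adjusted p was 0.502. Bbc3 had 1.72 ± 0.52 (adjusted p = 0.182), Mcl1 1.15 ± 0.62 (adjusted p = 0.412), Bcl2l2 0.92 ± 0.41 (adjusted p = 0.316), Bcl2 0.62 ± 0.22 (adjusted p = 0.237), Bcl2l11 0.43 ± 0.31 (adjusted p = 0.533) and Bid 0.35 ± 0.24 (adjusted p = 0.517). The value of Mcl1 depended on 1 OL replicate, at 1.98 without OL replicate 1 and 0.31 without OL replicate 2. Refitted without the 6 h library, the differences were 0.10 for Bcl2, 0.47 for Bcl2l2 and 0.00 for Bid. The median difference was 0.52 over the 10 members and 0.37 over all transcripts. The effectors Bak1 (0.05 ± 0.06, adjusted p = 0.723) and Bok (0.04 ± 0.48, adjusted p = 1) were near 0, and Bax was at the ceiling throughout, where no longer life can be seen.

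Since most transcripts had a longer half-life in OLs, each half-life was also ranked within its own replicate. Bbc3 was the only member whose rank was higher in both OL replicates than in all OPC replicates. It stood at percentile 2.27, 14.7 and 7.56 in OPCs and 38.2 and 41.6 in OLs, a move shared by 18.1% of all transcripts. The rank of Bax was lower in both OL replicates (80.1 and 82.0) than in all OPC replicates (84.4 to 87.8), as for 27.9% of all transcripts. All its half-lives were at the ceiling, so this rank followed the share of transcripts there. With each replicate centred on its median, Bbc3's difference was 0.81 ± 0.45 (adjusted p = 0.220), those of Mcl1 and Bcl2l2 were 0.24 and 0.02, and those of Bcl2 (-0.28), Bcl2l1 (-0.14), Bcl2l11 (-0.48), Bid (-0.55), Bak1 (-0.85) and Bok (-0.86) changed sign, since centring took 0.90 from every transcript. That was more than the median difference over all transcripts, 0.37. Before centring Bcl2, Bcl2l1 and Bcl2l11 lay above that median difference, and Bid, Bak1 and Bok lay below it. None of these 6 passed after centring (adjusted p from 0.0694 to 0.769), and the value of Bak1 was set by the 6 h ceiling, where 4 of its 5 half-lives lay.

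The slopes gave a test of the difference over all 25 libraries, with 1 slope fitted per cell type and the 5 libraries of a replicate treated as independent, so its error is not the spread of slopes between replicates. Mcl1 had a slope of -0.56, -0.74 and -0.61 log2 units per h in OPC replicates 1, 2 and 3 and of -0.38 and -0.19 in OL replicates 1 and 2. Both OL values were shallower than all OPC values, and OL replicate 2 kept 45.5% of its Mcl1 at 6 h where OL replicate 1 kept 16.7%. The fall of Mcl1 in OL replicate 2 was not even, at 112%, 64.8% and 66.4% of 0 h at 1, 2 and 4 h. In OL replicate 1 it was at 47.7%, 43.3% and 26.5%. The slope difference of Mcl1 was 0.35 ± 0.10 (adjusted p = 0.0107), but 0.26 ± 0.13 without OL replicate 2 (adjusted p = 0.190). Bcl2l1 had -0.55, -0.79 and -0.60 log2 units per h in OPCs and -0.31 and -0.41 in OLs, with no overlap, and its difference was 0.29 ± 0.08 (adjusted p = 0.00939), or 0.24 ± 0.11 without OL replicate 1 (adjusted p = 0.151). When 1 slope was fitted to each replicate and the 3 OPC slopes were compared with the 2 OL slopes by limma, an alternative chosen after seeing the data, the adjusted p was 0.0167 for Mcl1 and 0.0372 for Bcl2l1. At 4 h Bcl2l1 was at 47.4% and 38.5% in OLs. Bcl2l2, Bbc3 and Bid also had both OL slopes shallower than all OPC slopes. The share of all transcripts with slopes apart in this way was not counted.

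These were the only members to pass, 2 of 10 with a shallower slope in OLs, beside 32.1% of all 8177 transcripts, while 0.391% had a steeper one. With a pseudocount of 0.1 FPKM 6 of 10 members passed, beside 37.1% of all transcripts in either direction, so how the members stood against the background depended on the pseudocount. With each library rescaled to its median, which took 0.21 log2 units per h from every difference, Mcl1 had 0.14 ± 0.09 (adjusted p = 0.266) and Bcl2l1 0.08 ± 0.07 (adjusted p = 0.433). Under the same rescaling Bax passed in the other direction, at -0.20 ± 0.06 (adjusted p = 0.0181), against 0.01 ± 0.06 on the authors' scale (adjusted p = 0.876). The calls for Mcl1 and Bcl2l1 thus depended on the scale, and on the spike-in scale each was lost without 1 of the OL replicates. The rescaling took more than the median difference over all transcripts, 0.14. It therefore did not set these genes against the slope of the median transcript.

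The other 8 members did not pass. Bbc3 had 0.27 (adjusted p = 0.0771), Bid 0.16 (adjusted p = 0.0757), Bcl2l2 0.15 (adjusted p = 0.0936), Bok 0.13 (adjusted p = 0.231), Bcl2 0.11 (adjusted p = 0.182), Bak1 0.06 (adjusted p = 0.480) and Bcl2l11 0.03 (adjusted p = 0.830). The median was 0.14 over the members and 0.14 over all transcripts. In percentages left at 6 h, 6 of 10 members (Mcl1, Bcl2, Bcl2l1, Bcl2l2, Bbc3 and Bak1) had both OL replicates above all OPC replicates, beside 48.9% of all transcripts. Bcl2 had 18.4% and 15.1% left in OLs and Bcl2l2 had 33.5% and 36.8%, each beside 31.5% and 36.6% for the median transcript.

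Bbc3 did not follow an exponential fall in OLs. Its level was 46.4% and 72.3% of 0 h at 1 h and 28.6% and 26.5% at 2 h, and then stood at 39.8% and 53.9% at 4 h and 56.7% and 29.4% at 6 h. Both OL replicates thus held more at 4 h than at 2 h. In OPCs the levels at 4 h were 12.5%, 16.2% and 7.81%, higher than at 2 h in replicates 1 and 2. In FPKM, OL Bbc3 at 4 h was 7.23 and 7.80, against 0.822, 1.74 and 0.773 in OPCs. A half-life is a poor summary of such a course, and with the half-lives refitted without the 6 h library the difference of Bbc3 was 0.66 ± 0.61 (adjusted p = 0.792).

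**Figure D3:**
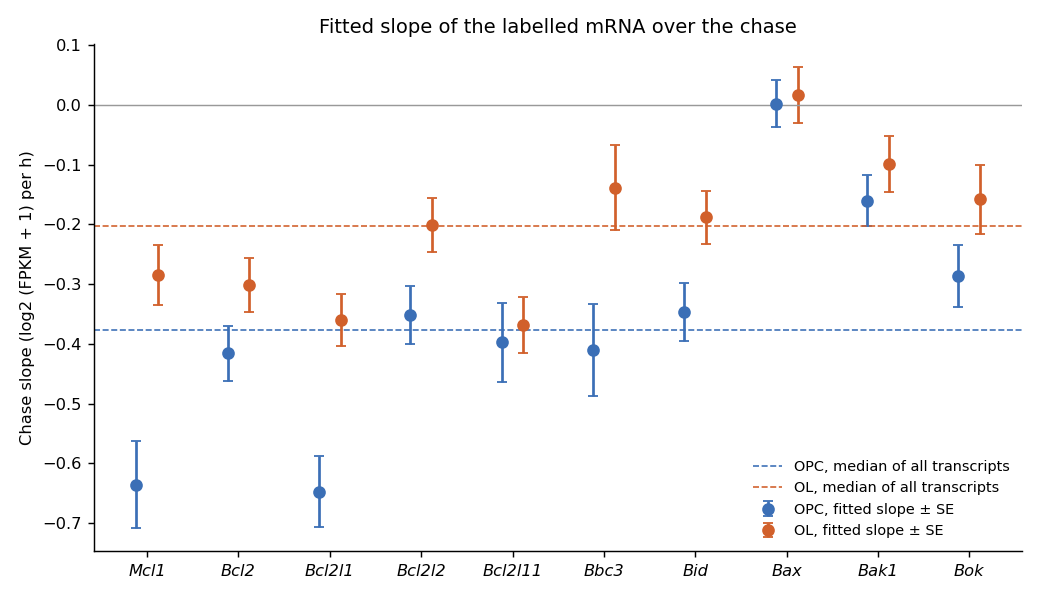
Fitted slope of log2(FPKM + 1) per h of chase (vertical axis) for each gene in OPC (blue) and OL (orange), with bars of 1 SE and dashed lines at the median slope of all transcripts. On this scale Mcl1 and Bcl2l1 are the steepest in OPCs, and their OL slopes are shallower by 0.35 and 0.29, while Bax lies at 0 in both.

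At 0 h, after 24 h of labelling, the levels of most members were alike in the 2 cell types. Mcl1 had 82.3, 91.2 and 90.6 FPKM in OPCs and 81.5 and 85.1 FPKM in OLs, a log2 difference of -0.08 ± 0.20 (adjusted p = 0.798). Bcl2 had 4.30, 8.12 and 5.91 FPKM in OPCs and 4.90 and 8.78 FPKM in OLs. Bcl2l1 had 16.5, 15.7 and 21.4 FPKM in OPCs and 15.03 and 36.7 FPKM in OLs, so that its OL replicates lay on either side of the OPC range. Bcl2l2 had 11.6, 12.7 and 9.47 FPKM in OPCs and 18.4 and 15.8 FPKM in OLs (0.57 ± 0.23, adjusted p = 0.0925). Both OL values of Bcl2l2 lay above the OPC values.

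Bok was the member that changed. It had 41.0, 32.4 and 44.5 FPKM in OPC replicates 1, 2 and 3 and 6.05 and 7.55 FPKM in OL replicates 1 and 2. Every OL value was below every OPC value, and the OPC mean was 5.78 times the OL mean. The log2 difference was -2.36 ± 0.24 (adjusted p = 0.000414), and it passed in all 9 alternatives, with adjusted p from 2.54e-05 to 0.00912. Bok was 1 of 10 members to pass with a lower level, beside 15.8% of all 8177 transcripts, and no member passed with a higher level, beside 13.8%, while 3 of 10 had an unadjusted p under 0.05 by limma in either direction, beside 42.9% of all transcripts. Bok was also the only member with OLs wholly below, beside 31.4% of all transcripts.

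Bbc3 had 6.59, 10.8 and 9.89 FPKM in OPCs and 18.2 and 14.5 FPKM in OLs, 1.80 times the OPC mean. The ranges did not overlap, and the difference of 0.80 ± 0.26 had an adjusted p of 0.0533. Bcl2l11 had 7.61, 5.80 and 8.14 FPKM in OPCs and 8.23 and 8.77 FPKM in OLs, narrowly above. Bcl2l2, Bbc3 and Bcl2l11 were thus 3 of 10 members with OLs wholly above, beside 28.0% of all transcripts. Bid had 1.06 and 2.01 FPKM in OLs. Bax had 225, 154 and 204 FPKM in OPCs and 141 and 162 FPKM in OLs, and Bak1 58.0, 38.7 and 45.9 FPKM in OPCs and 33.7 and 41.4 FPKM in OLs, each overlapping.

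FPKM is scaled per kilobase, so levels can be set in order within a cell type. In OPCs the mean 0 h levels ran from Bax (194 FPKM) through Mcl1 (88.0), Bak1 (47.5), Bok (39.3), Bcl2l1 (17.9), Bcl2l2 (11.3), Bbc3 (9.08), Bcl2l11 (7.18) and Bcl2 (6.11) to Bid (2.26). The neighbours Bak1 and Bok overlapped, as did each pair from Bcl2l2 to Bcl2, and the other neighbours did not. In OLs the order was Bax (152 FPKM), Mcl1 (83.3), Bak1 (37.5), Bcl2l1 (25.9), Bcl2l2 (17.1), Bbc3 (16.3), Bcl2l11 (8.50), Bcl2 (6.84), Bok (6.80) and Bid (1.53). There the neighbours from Bak1 to Bbc3 and from Bcl2l11 to Bok overlapped, so Bok moved from the group of Bak1 to that of Bcl2. In mean half-life every neighbouring pair overlapped in OPCs, and in OLs every pair except Bid and Bcl2l11.

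**Figure D4:**
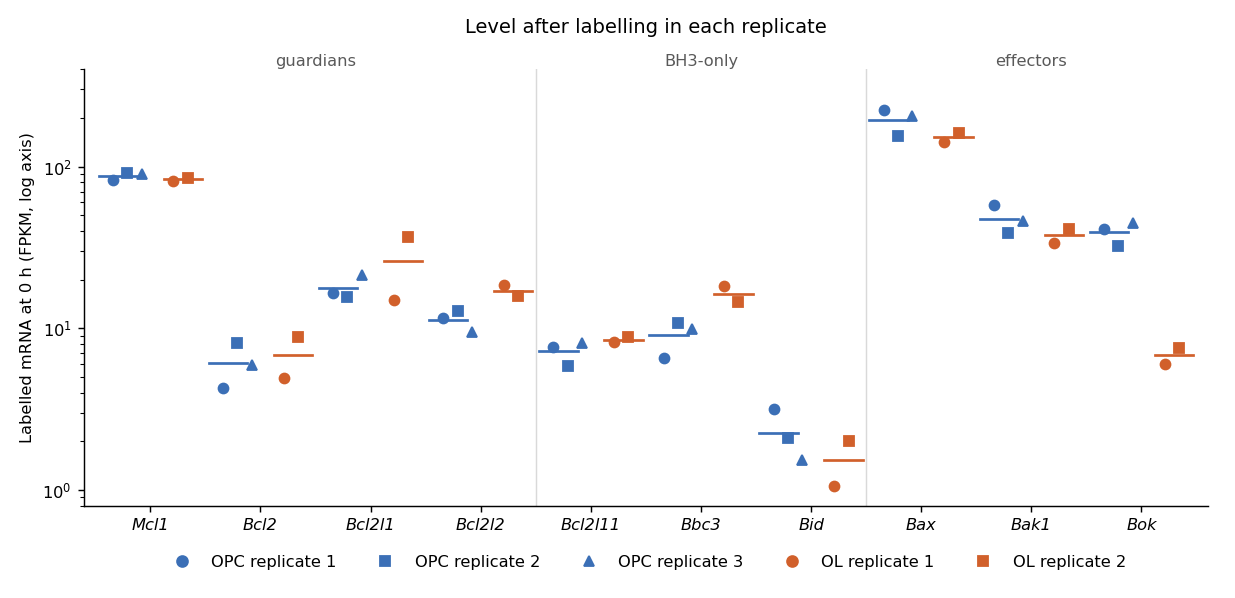
Level of labelled mRNA at 0 h in FPKM (vertical axis, log scale) of each gene in OPC (blue) and OL (orange), with 1 point per replicate and a bar at each mean. Bok lies at 32.4 to 44.5 FPKM in OPCs and at 6.05 to 7.55 FPKM in OLs, and the points of most other genes overlap.

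Ratios between genes of the same library do not depend on the spike-in scale, since every transcript of a library shares it. The ratio of Mcl1 to Bax was 0.366, 0.593 and 0.444 at 0 h in OPC replicates 1, 2 and 3 and 0.0551, 0.0332 and 0.0439 at 6 h. In OLs it was 0.576 and 0.525 at 0 h and 0.0965 and 0.289 at 6 h. It fell 6.64-, 17.9- and 10.1-fold in OPCs and 5.97- and 1.82-fold in OLs, a larger fall in every OPC replicate, but the difference did not pass (exact two-sided permutation test, p = 0.2). With 3 against 2 replicates there are 10 relabellings, and the smallest p they can give is 0.1.

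The summed FPKM of the 4 guardians over that of the 3 effectors was 0.354, 0.568 and 0.432 in OPCs and 0.662 and 0.694 in OLs at 0 h. At 6 h it was 0.0615, 0.0419 and 0.0566 in OPCs and 0.146 and 0.327 in OLs. The fall was 5.76-, 13.5- and 7.64-fold in OPCs and 4.53- and 2.12-fold in OLs, with no overlap, a log2 difference of 1.44 between the mean changes (exact two-sided permutation test, p = 0.1, the smallest possible here). Mcl1 made up 71.7%, 71.4% and 71.1% of the guardian sum in OPCs at 0 h and 68.0% and 58.1% in OLs. Bax made up 69.4%, 68.4% and 69.3% of the effector sum in OPCs and 78.1% and 76.8% in OLs, and Bok 12.7%, 14.4% and 15.1% against 3.34% and 3.58%. These are ratios of labelled mRNA, and no protein was measured.

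**Figure D5:**
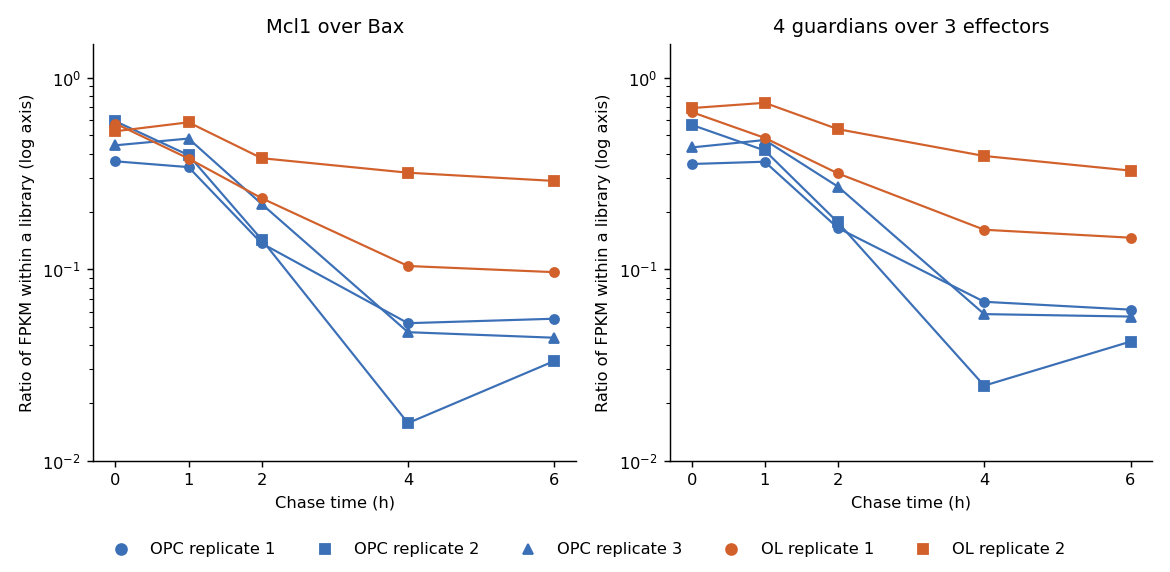
Ratio of Mcl1 to Bax FPKM (left) and of the summed FPKM of the 4 guardians to that of the 3 effectors (right), on a log axis, against chase time in h, with 1 line per replicate, OPC in blue and OL in orange. At 6 h the Mcl1 to Bax ratio lies between 0.0332 and 0.0551 in OPCs and at 0.0965 and 0.289 in OLs.

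The study concerns codons read by modified tRNAs, so codon use was tabulated for the members, as a description. UUU bias is the percentage of phenylalanine codons that are UUU, AAA bias the percentage of lysine codons that are AAA, and GC3 the percentage of codons ending in G or C. The medians over all transcripts were 44.4%, 37.5% and 60.6%. Mcl1 and Bax, whose mean half-lives in OPCs were 1.36 h and the 6 h ceiling, had almost the same GC3, 75.2% and 75.5% (percentiles 91.9 and 92.4). Their AAA bias was 50% and 25% and their UUU bias 45.5% and 36.4%. Bbc3 had the highest GC3 of the family, 77.2%, with a UUU bias of 0% from 2 phenylalanine codons and no lysine codon. Bcl2l11 had the lowest GC3, 54.6%, and used no AAA, which was also true of Bcl2, Bak1 and Bok. The highest AAA bias was that of Bid, 66.7%, from 6 lysine codons, and the highest UUU bias that of Bcl2l1, 61.5%, from 13 phenylalanine codons.

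Of the other genes of the pathway, those around the family were read from 4 lists, tested by limma as above. The counts that fell over the chase stand beside 81.7% of all transcripts in OPCs and 68.4% in OLs, and nothing particular to a list is read from them. Of 15 other family members 5 were listed in both cell types, and none passed in half-life (0 of 5 with an unadjusted p under 0.05). Bnip3, a mitophagy receptor with a BH3-like stretch, rose at 0 h (log2 difference 1.88 ± 0.31, adjusted p = 0.00385). Bnip2 and Bcl2l13 had shallower slopes in OLs, by 0.26 ± 0.07 and 0.22 ± 0.06 log2 units per h. In OPCs 4 of 5 fell over the chase, Bcl2l13 (-0.49), Bnip2 (-0.49), Bad (-0.34) and Bnip3 (-0.22), and in OLs 5 of 8, of which Bmf (-0.52), Bcl2l13 (-0.27), Bnip2 (-0.23) and Bad (-0.14) had the largest slopes.

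Of 15 apoptosome and caspase genes 13 were listed in both, and none passed in half-life (0 of 13 with an unadjusted p under 0.05 by limma). At 0 h the protease Htra2 (-1.23 ± 0.21) and the channel Vdac3 (-0.72 ± 0.21) fell in OLs and none rose. Apaf1 (0.30 ± 0.10), the scaffold of the apoptosome, had a shallower slope in OLs. In OPCs 10 of 13 fell over the chase, led by Apaf1 (-0.62), Casp2 (-0.55), Casp9 (-0.46) and Casp6 (-0.38), and Vdac1 rose (0.14), while in OLs 8 of 13 fell, led by Casp2 (-0.40), Casp9 (-0.33), Apaf1 (-0.32) and Casp6 (-0.26).

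Of the inhibitors of apoptosis 3 of 5 were listed in both, and by limma none passed in half-life (1 of 3 with an unadjusted p under 0.05) or in slope difference (0 of 3). Birc5 (survivin), which also acts in mitosis, fell at 0 h by 2.72 ± 0.50 (adjusted p = 0.00651), beside proliferation markers that were lower in OLs. The 3 fell over the chase in both cell types, Birc2 (-0.53 in OPCs and -0.49 in OLs), Birc5 (-0.50 and -0.40) and Xiap (-0.36 and -0.24). Of 10 regulators of the family 7 were listed in both. Usp9x, a deubiquitinase of the Mcl1 protein, had a shorter half-life in OLs (-0.54 ± 0.04, adjusted p = 0.0271), with 6 h, the ceiling, in all 3 OPC replicates and 3.96 and 4.27 h in OLs. Its slopes, -0.15 in OPCs and -0.21 in OLs, did not differ past the threshold (-0.06 ± 0.07, adjusted p = 0.492), and its half-life call was lost in 6 of 9 alternatives. Mdm2, which removes p53, rose at 0 h (1.09 ± 0.27), and Trp53 (-0.84 ± 0.20) and Akt1 (-0.74 ± 0.21) fell. Foxo3 (0.28 ± 0.10) and Trp53 (0.27 ± 0.10) had shallower slopes in OLs. In OPCs 6 of 7 fell over the chase, led by Mdm2 (-0.56), Foxo3 (-0.52), Trp53 (-0.48) and Mapk8 (-0.41), and in OLs 6 of 9, led by Fbxw7 (-0.43), Mdm2 (-0.38), Mapk8 (-0.36) and Foxo3 (-0.23).

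Most of these calls between the cell types were lost with fewer samples. Of the 7 genes named for their 0 h level only Birc5 (-3.70 to -1.74) passed with each replicate left out in turn, and without OL replicate 1 the other 6 did not pass. Of the 5 genes named for their slope difference none passed throughout: without OL replicate 1 Bcl2l13, Apaf1, Foxo3 and Trp53 did not pass, and without OL replicate 2 Bnip2, Bcl2l13, Apaf1 and Trp53 did not. The direction of all 12 calls held in each of these fits, and at 0 h Bnip3 had 1.58 to 2.19, Mdm2 0.885 to 1.303, Htra2 -1.30 to -1.15, Trp53 -0.90 to -0.78, Akt1 -0.80 to -0.68 and Vdac3 -0.80 to -0.64. The slope difference ran from 0.16 to 0.41 for Foxo3, 0.21 to 0.39 for Trp53, 0.19 to 0.33 for Bnip2, 0.26 to 0.35 for Apaf1 and 0.19 to 0.24 for Bcl2l13. Rescaling each library to its median left slope differences of 0.05 for Bnip2, 0.01 for Bcl2l13, 0.09 for Apaf1, 0.07 for Foxo3 and 0.06 for Trp53, and none of the 5 passed (adjusted p from 0.491 to 0.912). With 1 slope per replicate Bnip2 (adjusted p = 0.0341) and Apaf1 (adjusted p = 0.0245) passed and Bcl2l13, Foxo3 and Trp53 did not (adjusted p from 0.0543 to 0.0688).

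The transcripts most like Mcl1 over the chase were found by Euclidean distance between log2(percent of 0 h + 1) over the 20 later libraries, among 8177 transcripts. Among the nearest were Trim32 (distance 1.69), which encodes a ubiquitin ligase, and Rnf4 (1.74), a ubiquitin ligase of SUMO-bearing proteins. No member was near. The nearest was Bcl2, at 3.21 and 518 in the order of distance, and Bax lay at 9.82 and 7297.

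The members' transcripts were placed by GENCODE M21 on GRCm38. Mcl1 lay at chr3:95658788-95663176 with 3 exons, Bcl2 at chr1:106538178-106714274 with 2 exons, Bcl2l1 at chr2:152780668-152831728 with 3 exons and Bcl2l2 at chr14:54883377-54888234 with 4 exons. Bcl2l11 lay at chr2:128126039-128162547 with 4 exons, Bbc3 at chr7:16309616-16318205 with 4 exons and Bid at chr6:120892854-120916853 with 6 exons. Bax lay at chr7:45461697-45466898 with 6 exons, Bak1 at chr17:27019810-27029009 with 6 exons and Bok at chr1:93685660-93695764 with 5 exons. Exons of another annotated gene overlap Bax (Gm45808) and Bcl2l2 (Gm20521) on the same strand and Bak1 (Ggnbp1) and Bcl2 (D630008O14Rik) on the opposite strand. None of these was listed in the tables, and reads shared with them could not be told apart.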

How the data were processed

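Levels and half-lives came from 25 libraries, 15 of OPCs and 10 of OLs, grouped as labelled. Per the study's methods and the submitters' processing notes, the authors aligned reads to GRCm38 with HISAT2 2.1.0 and obtained FPKM for canonical coding transcripts with StringTie 1.3.5. Deposited FPKM values at 1 to 6 h were scaled by the authors to spike-in RNA relative to 0 h, so an error in 1 factor moves every gene of a library. The deposited half-lives, in hours (unit: other), were fitted by the authors by least absolute deviations, with values over 6 h set here to 6 h. No counts were given, so depth is unknown and no counting error can be stated. Background RNA on the beads was not subtracted.

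Log2 half-life and log2(FPKM + 1) were tested with limma 3.58.1 in R 4.3.3, adjusted by Benjamini-Hochberg over all transcripts tested. Half-lives and 0 h levels had cell type as the only term, and slopes had an intercept for each replicate and 1 slope per cell type. Scripts were tested on simulated data. Named were all 10 members, up to 4 genes past the threshold per list and comparison, and the 3 transcripts nearest to Mcl1, apart from items that are not reported here. Members, lists and tests were chosen with earlier results of these data known. Replicates are described as biological by the study, and which OPC replicates gave rise to which OLs is not given in the sources used here. Alternatives left out each replicate, changed the pseudocount to 0.1 FPKM, required a mean of 5 FPKM at 0 h, rescaled libraries to their medians, dropped 6 h libraries, or changed the replicate block, and 1 chosen after seeing the data compared 1 slope per replicate. Transcript sequences, motifs and codons came from GENCODE M21, in which 10104 of 10104 identifiers matched.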

Additional observations from a re-analysis of the deposited data

Results flagged for a closer look

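The chase slope of 2 members differed between the cell types by a test of the difference itself, 2 of 10 beside 32.1% of all transcripts with a shallower slope in OLs. Both OL slopes were shallower than all 3 OPC slopes in these 2 members, and also in Bcl2l2, Bbc3 and Bid, members that did not pass. For Mcl1 the OL slope was shallower by 0.35 log2 units per h, and for Bcl2l1 it was shallower by 0.29 log2 units per h. Each kept its direction in all 11 alternatives and passed in 9 of them. Neither passed once libraries were rescaled to their medians. Mcl1 did not pass without OL replicate 2 (0.26, adjusted p = 0.190) and Bcl2l1 did not without OL replicate 1 (0.24, adjusted p = 0.151).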

How the results depend on the processing

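The main limits are that depth is unknown from FPKM, that each chase library carries 1 spike-in factor shared by all its genes, and that there are only 2 OL replicates. Across the alternatives 373 values of single members kept their direction and their side of the threshold, 40 changed sign (25 of them under centring or rescaling), 19 no longer passed and 13 passed newly, and some of these also changed sign.

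The number of members past the threshold was 0 for half-life, and 0 to 1 with a replicate left out (1, Bcl2l1, without OL replicate 2). For the 0 h level it was 1, or 2 with a mean of at least 5 FPKM, and 1 to 2 with a replicate left out (Bbc3 was added without OPC replicate 2). For the slope it was 9 in OPCs and 7 in OLs, or 5 and 4 with each library rescaled to its 0 h median, 7 and 6 without the 6 h libraries, 8 and 6 with a mean of at least 5 FPKM, and 5 in OLs without OL replicate 2. For the slope difference it was 2, but 6 with a pseudocount of 0.1 FPKM (Bcl2, Bcl2l2, Bbc3 and Bid were added), 1 after rescaling (Bax), and 1 to 4 with a replicate left out (4 without OPC replicate 1, 1 without OL replicate 1 and 1 without OL replicate 2). Over all transcripts the 287 half-life calls became 1 with each replicate centred on its median, 24 with half-lives refitted without 6 h, 0 with the replicate block, and 173, 167 and 169 without OPC replicate 1, OPC replicate 2 or OL replicate 1. The 2421 calls of the 0 h level became 1263, 896 and 1181 without OPC replicate 3, OL replicate 1 or OL replicate 2. The 7334 and 6814 slope calls, among 8530 transcripts in OPCs and 9751 in OLs, became 4578 and 4391 after rescaling. Without the 6 h libraries they became 5897 and 4606. The 2655 calls of the slope difference became 1622 without the 6 h libraries, 1748 without OPC replicate 2, and 746 and 975 without OL replicate 1 or 2.

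With each replicate centred on its median, the half-life differences of Bcl2 (-0.28), Bcl2l1 (-0.14), Bcl2l11 (-0.48), Bid (-0.55), Bak1 (-0.85) and Bok (-0.86) changed sign. After rescaling, the OPC slopes were 0.0227 for Bcl2, 0.0874 for Bcl2l2, 0.0411 for Bcl2l11, 0.0292 for Bbc3, 0.0928 for Bid, 0.279 for Bak1, 0.153 for Bok, 0.0983 for Bad, 0.220 for Bnip3, 0.0541 for Casp6, 0.0788 for Xiap and 0.0259 for Mapk8. The OL slopes were 0.0341 for Bcl2l2, 0.0964 for Bbc3, 0.0468 for Bid, 0.136 for Bak1, 0.0768 for Bok, 0.00655 for Bnip2, 0.0966 for Bad and 0.000328 for Foxo3. The slope differences were -0.0970 for Bcl2, -0.0612 for Bcl2l2, -0.183 for Bcl2l11, -0.0539 for Bid, -0.198 for Bax, -0.151 for Bak1 and -0.0836 for Bok. With a replicate left out, the half-life difference ranged from 0.31 to 1.98 for Mcl1, 0.30 to 0.94 for Bcl2, 0.17 to 0.53 for Bid, -0.000418 to 0.85 for Bcl2l11 and -0.48 to 0.56 for Bok, and the 0 h difference from -0.23 to 0.50 for Bcl2 and from -0.22 to 1.01 for Bcl2l1. The OL slope of Bok ranged from -0.28 to -0.04. The slope of Bax ranged from -0.0184 to 0.0348 in OPCs and from -0.0288 to 0.0619 in OLs. The slope difference ranged from -0.0313 to 0.0593 for Bax, from -0.0326 to 0.0835 for Bcl2l11 and from 0.0593 to 0.178 for Bcl2.

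The study states that the OL replicates match 2 of the OPC replicates but not by which numbers. Deviations of same-numbered OPC and OL replicates correlated at -0.0016 and -0.11 for half-life and at 0.06 and 0.01 for the 0 h level, so the numbers were not used as pairs, and a pairing by other numbers was not tested. With the replicate block the half-life difference of Bok was -0.0243, no member passed for half-life and 1 passed for the 0 h level. Without the intercepts of the replicates (no replicate block) 9 members passed for the slope in OPCs, 7 in OLs and 2 for the difference. With 1 slope per replicate, an alternative chosen after seeing the data, 2 members passed for the slope difference.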

Other observations

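A half-life of 1.957 h recurs in the deposited tables because of how the fit is built. When the levels at 1 and 2 h lie above the fitted exponential and those at 4 and 6 h below it, the sum of absolute residuals is least at 1.957 h whatever the levels are. This value, to within 0.001 h, was given to 2.18% of transcripts in OPC replicate 1, 25.6% in OPC replicate 2 and 7.45% in OPC replicate 3, against 0.474% in OL replicate 1 and 1.38% in OL replicate 2. Among the members it was given to Bcl2 in OPC replicates 2 and 3, Bcl2l1 in OPC replicates 1 and 2, and Bid in OPC replicates 2 and 3 and OL replicate 1. In OPC replicate 2 Bcl2, Bcl2l1 and Bid therefore shared a half-life while 6.37%, 3.31% and listed 0 of their 0 h levels were left at 4 h. In 31 transcripts all 3 OPC replicates had this value, and 5 of the 287 transcripts called for half-life were among them, all with a longer half-life in OLs.

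Over all transcripts, those with TATTTAT in the 3′ UTR had shorter median half-lives in all 5 replicates, at 2.02 h against 2.55 h, 1.96 h against 2.30 h and 2.36 h against 3.12 h for the OPC replicates, and 3.10 h against 4.82 h and 3.40 h against 4.52 h for the OL replicates. These transcripts also have longer 3′ UTRs, and the part of length was not tested. Among the members, Bbc3 and Bid fell below the median without either core in both cell types.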
